A study of Danio rerio with 11 samples.

Results

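The Bcl2 family was followed in RNA-seq of sorted zebrafish melanocytes and melanoma cells through 10 genes, taken by the gene name that the deposited table gives: *mcl1a*, *mcl1b*, *bcl2l1*, *bcl2l10*, *bcl2a*, *baxa*, *pmaip1*, *bbc3*, *bida* and *bcl2l11*. These names stand on 11 of 24441 gene rows, because *baxa* is the name of both ENSDARG00000020623 and ENSDARG00000089129. MC_WT samples (n = 3 fish) were mCherry-positive melanocytes sorted by FACS from the skin of AB* fish with *Tg(MiniCoopR; mitfa:mCherry)*, in which MiniCoopR adds a *mitfa* minigene and the *mitfa* promoter drives the reporter. MC_Het samples (n = 3 fish) were melanocytes with the same reporter from fish of the genotype BRAFV600E/+, p53+/lf, mitfa+/-, where the *mitfa* promoter also drives the BRAF oncogene and lf is a loss-of-function allele of p53. MA samples (n = 5) were GFP-positive cells sorted from tumors of BRAFV600E, p53lf/lf, crestin:EGFP fish, where 1 fish gave MA3A, MA3B and MA3C (from near the dorsal fin, the tail and the head), so that the 5 tumors stand for 3 fish. Ages were not given. MC_Het therefore differed from MC_WT in BRAF, p53 and *mitfa* genotype at once, and MA differed from both in reporter, p53 dose and tissue of origin. By the genotypes listed, MA also lacked the *mitfa* minigene of both melanocyte groups, and differed from MC_WT in BRAF. The BRAF transgene is written BRAFV600E for MA and BRAFV600E/+ for MC_Het, and mitfa+/- is listed for MC_Het but not for MA.

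Proteins of the Bcl2 family set the threshold at which the outer mitochondrial membrane opens and a cell dies through its mitochondria. The inhibitors (Mcl1, Bcl-xL from *bcl2l1*, Bcl2 and relatives) hold in check the effector Bax, which forms the openings, while the BH3-only proteins (Puma from *bbc3*, Noxa from *pmaip1*, Bim from *bcl2l11*, Bid from *bida*) sense damage or lost survival signals and free or activate Bax. In mammals p53 induces the genes of Puma and Noxa, ERK signalling downstream of BRAF marks Bim for degradation, and melanocytes and melanomas rely on Bcl2 and Mcl1 for survival. The roles given below are those known from mammals unless zebrafish is named.

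Library totals ranged from 14718024 to 22612463 reads. Values are given as rescaled CPM, the deposited CPM (reads of a gene scaled to a fixed library total) divided by a factor for each sample that makes the typical gene equal across samples. The factors were 0.69 to 0.89 in melanocytes and 1.19 to 1.36 in MA. On the CPM as deposited, the median log2 fold change of all genes between MA and melanocytes was 0.58 rather than 0.04, and the share of genes lower in MA among those called was 33.5% rather than 53.8%. The melanocyte samples carried strong keratinocyte signal beside the labelled cell type. Summed over 8 keratinocyte markers, led by *krt5*, the level was 49768 to 116014 rescaled CPM in the 6 melanocyte samples and 150.5 to 496 in MA. Summed over 8 melanocyte markers, led by *tyrp1b*, it was 449 to 977 in MC_WT, 1282 to 5200 in MC_Het and 3040 to 10618 in MA. The 2 melanocyte genotypes did not overlap in this sum, which was carried by *tyrp1b* and *pmela*. Each of *mitfa*, *dct*, *tyr*, *tyrp1a*, *slc45a2* and *oca2* overlapped between them. The 8 leukocyte markers, led by *cd74a*, summed to 3816 to 5745 in melanocytes and 68.6 to 695 in MA, and the 8 genes of dissociation stress, led by *fosab*, to 14066 to 24895 against 1345 to 9175. The 6 fibroblast and bone markers, led by *col1a2*, summed to 623 to 3974 in melanocytes and 6.61 to 60.4 in MA. No marker of these 5 lists was at 0 in all samples of either kind. These sums separated MA from every melanocyte sample, except that the melanocyte markers overlapped, and their part in the results on the Bcl2 family was not tested. In such bulk samples, fewer cells of a type and less RNA per cell cannot be told apart.

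In MA, both *mcl1* genes and the BH3-only genes *pmaip1* and *bbc3* were lower than in all melanocytes together, *bcl2l1* was higher, and *bida* and *bcl2l11* were not called. By limma on log2(rescaled CPM + 1), with Benjamini-Hochberg adjustment over 14706 genes, 1 of the 11 rows was called higher and 6 were called lower in MA at an adjusted p under 0.05. At that threshold 51.5% of all genes were called, 23.8% higher and 27.7% lower in MA. Of the 6 rows, the second row named *baxa* passed the filter on low values only through melanocytes, so its call is read as a description and not as a test. None of the 11 rows reached the stricter rule of a log2 fold change above 1 with an adjusted p under 1e-6, which 5.18% of all genes met. The median log2 fold change of the 11 rows was -0.89, beside 0.04 over all genes. Values of 5 rows, *mcl1a*, *mcl1b*, *bcl2l1*, *pmaip1* and *bbc3*, did not overlap between MA and melanocytes, as was so for 31.1% of all genes. On the deposited CPM the values of *mcl1a*, *mcl1b* and *bbc3* overlapped between MA and melanocytes, and *bcl2a*, *bcl2l1* and *pmaip1* did not. Of these, *bcl2a* passed the filter on low values only through MA. The share of all genes without overlap was not computed on the deposited CPM, so these rows are given as a description.

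**Figure D1:**
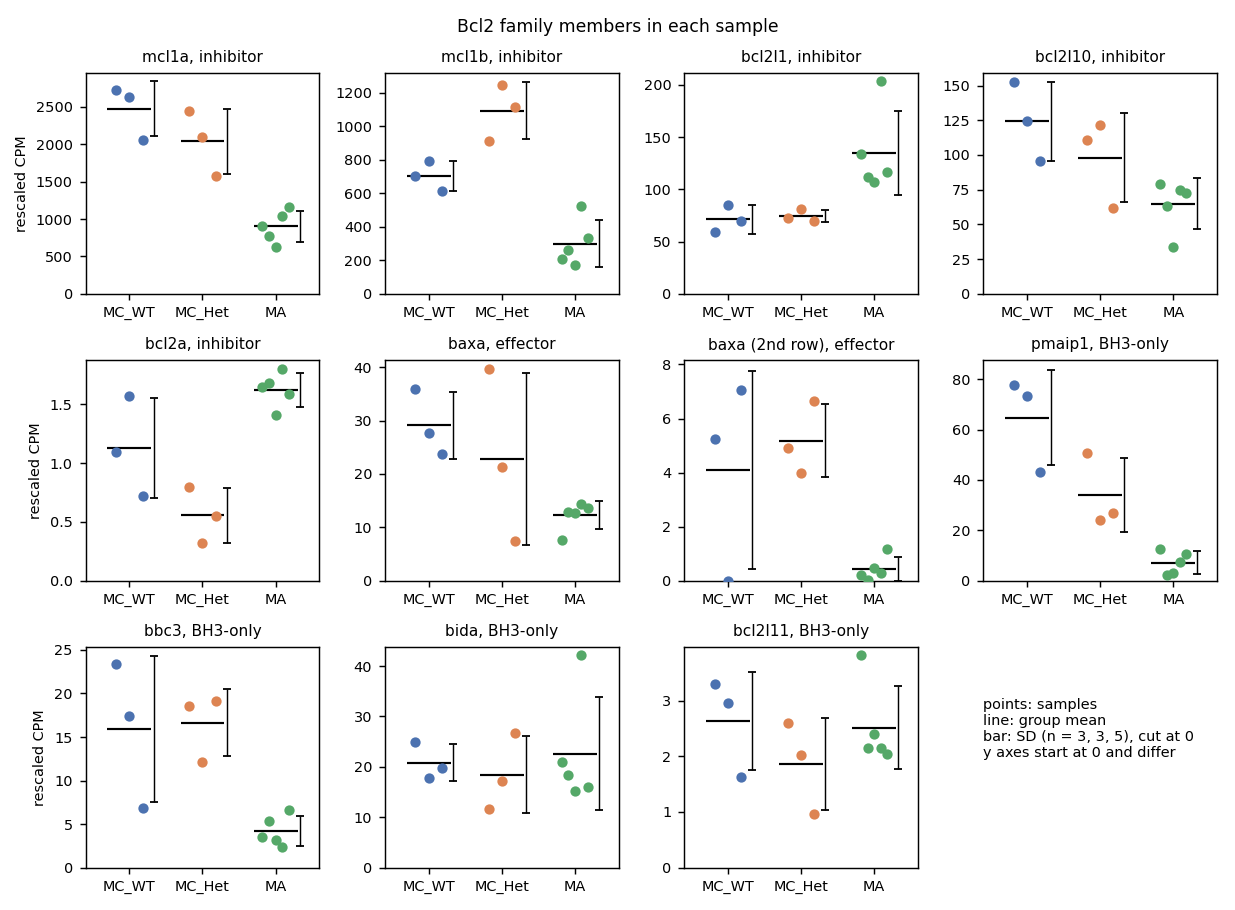
Rescaled CPM of each Bcl2 family row (y axes, each starting at 0 and of its own range) in the samples of MC_WT, MC_Het and MA. Points are samples, lines are group means and bars are the SD (n = 3, 3 and 5, cut at 0). All MA points of *mcl1a*, *mcl1b*, *pmaip1* and *bbc3* lie below all melanocyte points, and those of *bcl2l1* lie above.

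Of the inhibitors, *mcl1a*, a zebrafish copy of the gene for the short-lived survival protein Mcl1, was the most abundant. It was at 2728, 2632 and 2049.9 rescaled CPM in MC_WT1, MC_WT2 and MC_WT3, and at 2439, 2098 and 1570.5 in MC_Het1, MC_Het2 and MC_Het3. The tumors MA1, MA2, MA3A, MA3B and MA3C had 901, 771, 631, 1044 and 1159. Every tumor was below every melanocyte sample, and the 2 melanocyte genotypes overlapped. The mean was 2253 ± 433 (SD, n = 6) in melanocytes and 901 ± 210.3 (SD, n = 5) in MA, 2.50-fold lower in MA, and limma gave a log2 fold change of -1.33 (SE 0.24, adjusted p = 0.000301).

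The second copy, *mcl1b*, stood at 700.5, 794 and 616 rescaled CPM in MC_WT1 to MC_WT3 and at 913, 1248 and 1117 in MC_Het1 to MC_Het3. In MA1, MA2, MA3A, MA3B and MA3C it was at 208, 264, 169.7, 525 and 335. All MC_Het samples were above all MC_WT samples, and all tumors were below both. The mean of 898 ± 245 (SD, n = 6) in melanocytes was 2.99-fold that of 300.5 ± 140.2 (SD, n = 5) in MA, and the log2 fold change was -1.65 (SE 0.29, adjusted p = 0.000244, limma).

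*bcl2l1* encodes Bcl-xL, a long-lived inhibitor that holds Bax away from mitochondria, and was the only row called higher in MA. Its values were 58.7, 85.5 and 69.4 rescaled CPM in MC_WT1 to MC_WT3 and 72.7, 81.2 and 69.8 in MC_Het1 to MC_Het3. In MA1, MA2, MA3A, MA3B and MA3C they were 134, 112, 107, 204 and 117. The lowest tumor, MA3A, was above the highest melanocyte sample, MC_WT2, and MA3B stood well above the other tumors. On average melanocytes had 72.9 ± 9.49 (SD, n = 6) and MA 135 ± 39.96 (SD, n = 5), a log2 fold change of 0.84 (SE 0.22, adjusted p = 0.00423, limma).

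*bcl2l10* encodes an inhibitor that, in zebrafish, also sits at the endoplasmic reticulum and acts on calcium release. It was at 153, 125 and 95.6 rescaled CPM in MC_WT1 to MC_WT3, at 111, 122 and 62.0 in MC_Het1 to MC_Het3, and at 79.1, 63.5, 33.8, 75.1 and 72.7 in MA1, MA2, MA3A, MA3B and MA3C. MC_Het3 lay among the tumors, so the groups overlapped. The log2 fold change was -0.78 (SE 0.28, adjusted p = 0.0278, limma). This call was lost under 8 of 23 alternatives, among them the deposited CPM (-0.11, adjusted p = 0.728), averaging the tumors of fish MA3 (adjusted p = 0.0721) and leaving out MC_WT1, MC_WT2, MC_Het2 or MA3A (adjusted p = 0.0631, 0.0534, 0.0508 and 0.0812, all limma).

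*bcl2a*, a zebrafish copy of the gene for Bcl2 itself, was close to the limit of detection. It had 12 to 26 reads in the MC_WT samples, 4 to 12 in MC_Het and 37 to 47 in MA. This corresponds to 1.096, 1.57 and 0.72 rescaled CPM in MC_WT1 to MC_WT3, to 0.80, 0.32 and 0.55 in MC_Het1 to MC_Het3, and to 1.65, 1.68, 1.41, 1.80 and 1.59 in MA1, MA2, MA3A, MA3B and MA3C. The tumors lay within a 1.28-fold range, and MC_WT2 was the only melanocyte sample that reached it. *bcl2a* passed the filter of 1 CPM in 3 samples only through MA. Its log2 fold change of 0.54 (SE 0.27, adjusted p = 0.105, limma) was not called, and the pseudocount of 1 understates differences at such levels. It passed the threshold on the deposited CPM (0.90) and on RPKM (0.66), but a row that enters the fit only through MA is biased to be higher there, and these calls are not read as a result.

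The effector gene *baxa* (ENSDARG00000020623) was at 36.0, 27.7 and 23.8 rescaled CPM in MC_WT1 to MC_WT3, at 39.7, 21.4 and 7.39 in MC_Het1 to MC_Het3, and at 7.72, 12.9, 12.7, 14.3 and 13.7 in MA1, MA2, MA3A, MA3B and MA3C. All melanocyte samples but MC_Het3 were above all tumors. MC_Het3 was the lowest of the 11 samples. It also had the lowest *mitfa* (3.70 rescaled CPM), and its *slc45a2*, *tyrp1a* and *oca2* were, like *mitfa*, below every MC_WT sample. Its *dct* and *tyr* lay within the MC_WT range. Its sum over the 8 melanocyte markers (1282) was above those of MC_WT (449 to 977), carried by *tyrp1b* and *pmela*. The part of melanocyte content in its *baxa* value was not tested. The log2 fold change of -0.89 (SE 0.37, adjusted p = 0.055, limma) was not called. Without MC_Het3 it was -1.20 (adjusted p = 0.00277, limma), and it was also called in the fit of 3 groups (adjusted p = 0.0493), by edgeR (adjusted p = 0.0336) and by DESeq2 (adjusted p = 0.0128).

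The second row named *baxa* (ENSDARG00000089129) was much lower, and its identifier was not matched in the table of current names. It had 5.26, 0 and 7.06 rescaled CPM in MC_WT1 to MC_WT3, 4.91, 3.98 and 6.64 in MC_Het1 to MC_Het3, and 0.20, 0.04, 0.46, 0.27 and 1.19 in MA1, MA2, MA3A, MA3B and MA3C. MC_WT2, with 0 of 18622395 reads, which allows up to 3 reads, was below every tumor, while the other melanocyte samples were above all of them. The row passed the filter of 1 CPM in 3 samples only through melanocytes, where 5 samples had 49 to 117 reads, and so had to be lower in MA. Its fitted log2 fold change was -1.78, given here with no test. How reads that fit both *baxa* rows were divided is not known, so the split between them is uncertain, as it may be for stretches shared by *mcl1a* and *mcl1b*.

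Of the BH3-only genes, *pmaip1*, whose product Noxa binds Mcl1 and promotes its breakdown in human cells, had the largest fitted difference of the members at a pseudocount of 1. The second *baxa* row had a larger ratio of means (10.8-fold) and larger fitted values by edgeR and DESeq2. *pmaip1* was at 77.6, 73.4 and 43.0 rescaled CPM in MC_WT1 to MC_WT3 and at 50.8, 24.3 and 27.0 in MC_Het1 to MC_Het3. In MA1, MA2, MA3A, MA3B and MA3C it was at 12.5, 2.40, 3.003, 7.29 and 10.8. Each tumor was below each melanocyte sample, and MC_WT and MC_Het overlapped in 1 sample, MC_Het1. The mean fell from 49.4 ± 22.6 (SD, n = 6) to 7.19 ± 4.52 (SD, n = 5), a 6.86-fold difference and a log2 fold change of -2.70 (SE 0.42, adjusted p = 8.14e-05, limma).

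*bbc3* encodes Puma, which binds all the inhibitors. It had 23.4, 17.4 and 6.82 rescaled CPM in MC_WT1 to MC_WT3 and 18.6, 12.2 and 19.2 in MC_Het1 to MC_Het3, against 3.50, 5.30, 3.15, 2.38 and 6.59 in MA1, MA2, MA3A, MA3B and MA3C. The highest tumor, MA3C, lay just under the lowest melanocyte sample, MC_WT3. Its mean of 16.3 ± 5.86 in melanocytes (SD, n = 6) was 3.89-fold that of 4.18 ± 1.72 in MA (SD, n = 5), with a log2 fold change of -1.71 (SE 0.36, adjusted p = 0.00101, limma).

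*bida*, whose product links death receptors to mitochondria once caspase-8 has cut it, was at 24.8, 17.7 and 19.8 rescaled CPM in MC_WT1 to MC_WT3, at 11.5, 17.2 and 26.6 in MC_Het1 to MC_Het3, and at 20.9, 18.3, 15.2, 42.2 and 16.1 in MA1, MA2, MA3A, MA3B and MA3C. Only MA3B lay outside the melanocyte range. The log2 fold change was 0.13 (SE 0.31, 95% interval -0.52 to 0.79, adjusted p = 0.735, limma), and without MA3B it was -0.11. On the deposited CPM *bida* was called higher in MA (0.77, adjusted p = 0.0384, limma). *bcl2l11*, the gene of Bim, was at 0.96 to 3.29 rescaled CPM in melanocytes (median 2.31) and at 2.04 to 3.82 in MA, with 14 to 95 reads per sample. Its ranges overlapped and the log2 fold change was 0.14 (SE 0.32, 95% interval -0.53 to 0.81, adjusted p = 0.731, limma).

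The calls of *mcl1a*, *mcl1b*, *bcl2l1*, *pmaip1* and *bbc3* in MA against all melanocytes held under the 23 alternatives tried for each gene. Their largest adjusted p among these were 0.0216, 0.00996, 0.0242, 0.000675 and 0.0119. The size of the differences moved with the scaling: on the deposited CPM the log2 fold change of *mcl1a* was -0.66, that of *mcl1b* -0.98 and that of *bcl2l1* 1.51, beside the median of all genes of 0.58 on that scale. The p-values count each tumor as a sample.

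The comparisons with each melanocyte genotype used the same MA samples. Against MC_WT, 1 row was called higher and 6 lower in MA, where 44.5% of all genes were called (19.4% higher, 25.1% lower). The 7 rows were *bcl2l1* (0.88), *mcl1a* (-1.48), *mcl1b* (-1.33), *bcl2l10* (-0.96), *baxa* (-1.19), *bbc3* (-1.61) and *pmaip1* (-3.17), each with its log2 fold change. Their adjusted p by limma were 0.014, 0.000866, 0.0046, 0.0279, 0.038, 0.00801 and 9.76e-05. Against MC_Het, 1 row was called higher and 5 lower, the second *baxa* row among them, where 45.7% of all genes were called (20.5% higher, 25.2% lower). Apart from that row they were *bcl2l1* (0.80), *mcl1a* (-1.18), *mcl1b* (-1.96), *bbc3* (-1.80) and *pmaip1* (-2.23). Their adjusted p by limma were 0.0221, 0.00402, 0.000245, 0.00379 and 0.00163. The values of 7 rows did not overlap between MA and MC_WT, and likewise 7 between MA and MC_Het, as was so for 44% and 41.5% of all genes. The 7 against MC_Het include *bcl2a* and the second *baxa* row. These passed the filter only through MA and only through melanocytes, and are not read as a result.

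Some of these calls rested on single libraries or on the scaling. Without MC_WT1 the call of *bcl2l1* against MC_WT was lost (0.76, adjusted p = 0.0743, limma), as were those of *baxa* (-1.03, adjusted p = 0.139), *bcl2l10* (-0.80, adjusted p = 0.124) and *bbc3* (-1.27, adjusted p = 0.0589), which left 3 rows lower. The call of *bcl2l10* against MC_WT was lost under 7 of 20 alternatives, among them the deposited CPM (-0.24, adjusted p = 0.539) and leaving out MC_WT2 (adjusted p = 0.0709) or MA3A (adjusted p = 0.0531, all limma). The call of *baxa* against MC_WT was lost under 11 of 20 alternatives, and that against MC_Het (-0.60, adjusted p = 0.281) was gained without MC_Het3 (-1.21, adjusted p = 0.0216, limma). Against MC_Het, *bcl2l1* was not called without MC_Het1 (adjusted p = 0.0558), without MC_Het3 (adjusted p = 0.071) or with the fish as a random block (adjusted p = 0.0627, all limma). *bcl2a* had a log2 fold change of 0.76 against MC_Het (adjusted p = 0.0501, limma) and passed the threshold under 6 of 19 alternatives, with the same limit of a row that entered the fit through MA. On the deposited CPM, *mcl1b* (-0.61, adjusted p = 0.124) and *bbc3* (-0.99, adjusted p = 0.0623) were not called against MC_WT, and *mcl1a* (-0.57, adjusted p = 0.1) was not called against MC_Het.

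**Figure D2:**
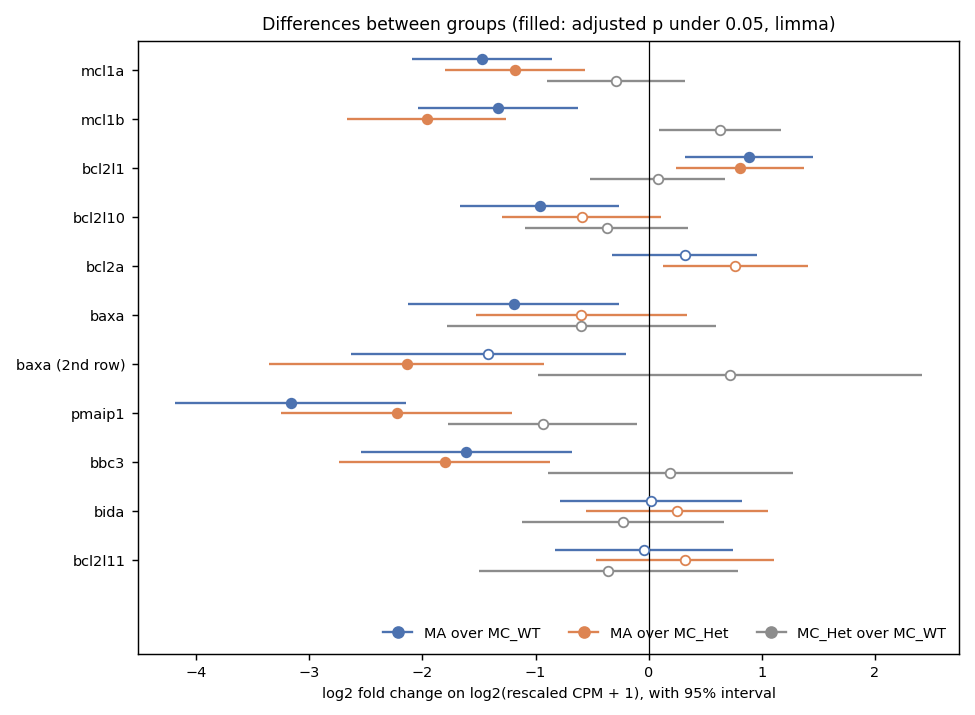
Log2 fold change on the scale of log2(rescaled CPM + 1) (x axis) of each Bcl2 family row (y axis) for MA over MC_WT, MA over MC_Het and MC_Het over MC_WT. Points are limma estimates with 95% intervals, and filled points have an adjusted p under 0.05. No point of MC_Het over MC_WT is filled, and *pmaip1* has the largest fall in MA against MC_WT (-3.17).

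Between MC_Het and MC_WT, which differ in BRAF, p53 and *mitfa* genotype before a tumor forms, no row was called of 10 tested. The melanocyte marker sums, carried by *tyrp1b* and *pmela*, did not overlap between these groups, and their part here was not tested. The other melanocyte markers each overlapped. *bcl2a* was below the filter in these 6 samples. Of all 13044 genes tested, 0.514% were called, and edgeR and DESeq2 also called none of the 10 rows. That background rested on single libraries. With all 6 samples, limma called 46 genes higher and 21 lower in MC_Het. Without MC_WT1, MC_WT2 or MC_WT3 the counts were 8 and 4, 110 and 135, and 7 and 5. Without MC_Het1, MC_Het2 or MC_Het3 they were 29 and 23, 2 and 5, and 2 and 6. At an unadjusted p under 0.05 there were 2 rows, *mcl1b* and *pmaip1*, and 1645 of all genes. *mcl1b* was higher in all 3 MC_Het samples than in any MC_WT sample (1093 ± 169 against 703 ± 89.4 rescaled CPM, SD, n = 3 each), with a log2 fold change of 0.63 (95% interval 0.09 to 1.17, adjusted p = 0.319, limma). It was the only row whose values did not overlap, as was so for 18.1% of all genes. *pmaip1* was at 64.7 ± 18.9 rescaled CPM in MC_WT and 34.0 ± 14.6 in MC_Het (SD, n = 3 each), with a log2 fold change of -0.94 (95% interval -1.77 to -0.10, adjusted p = 0.341, limma). *bcl2l1* was at 71.2 ± 13.5 and 74.6 ± 5.94 rescaled CPM (SD, n = 3 each), and the interval of its log2 difference, -0.51 to 0.67, leaves room for a change of either sign.

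Levels of different genes were compared on RPKM, which divides CPM by the length listed for each gene. *pmaip1* is listed with 138 bp, against 630 to 3808 bp for the other members, and its RPKM depends on that short length, so it was left out of shares of the family sum. Among the other 9 genes, *mcl1a* held 61.0 to 77.4% of the summed RPKM in every one of the 11 samples. The inhibitors together held 98.2 to 98.8% in melanocytes and 97.0 to 98.2% in MA. With *pmaip1* kept in, they held 80.2 to 91.8% in melanocytes and 88.6 to 95.4% in MA, so the direction of this difference depends on that gene. Such shares do not depend on the scaling between samples. They do depend on *mcl1a* and *mcl1b*, the largest parts of the sum, which were lower in MA. The share of another gene can therefore be higher in MA without a change in that gene. *bcl2l1* held 0.99 to 1.62% in the melanocyte samples and 4.37 to 7.16% in the tumors, without overlap. Its mean in rescaled CPM was 1.85-fold higher in MA. *bcl2a* held 0.02 to 0.10% and 0.22 to 0.35%, also without overlap, while *mcl1b* overlapped at 15.2 to 33.3% and 12.7 to 23.7%. *bcl2a* passed the filter only through MA, and its share is not read as a result. The sum over all 10 members was 1638 to 2662 RPKM as deposited in melanocytes and 889 to 1656 in MA, so the melanocyte sample with the lowest sum overlapped the highest tumor.

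**Figure D3:**
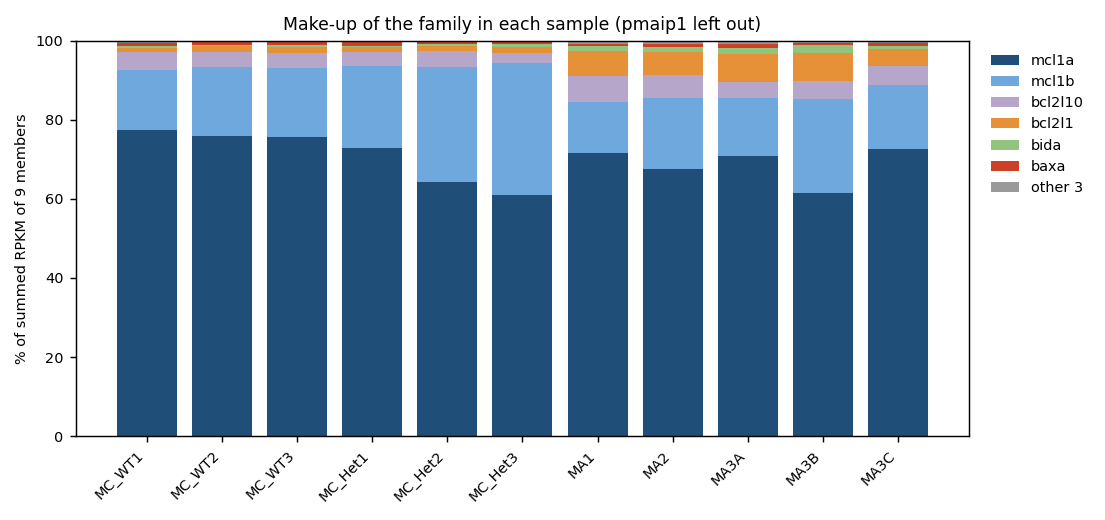
Share of the summed RPKM of 9 Bcl2 family genes (y axis, percent, *pmaip1* left out) in each of the 11 samples (x axis). Each bar adds up to 100 percent. *mcl1a* is the largest part of each bar, and the part of *bcl2l1* is 4.37 to 7.16% in the tumors and at most 1.62% in melanocytes.

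In order of mean rescaled RPKM, *mcl1a* came first in every group, at 1753 ± 261 in MC_WT, 1445 ± 310.5 in MC_Het (SD, n = 3 each) and 639.6 ± 149 in MA (SD, n = 5), and its range did not overlap that of the next gene. In MC_WT *pmaip1* and *mcl1b* followed with overlapping ranges, then *bcl2l10* (92.2 ± 21.2) and *bcl2l1* (30.1 ± 5.70). The place of *pmaip1* in each group depends on its listed length of 138 bp. In rescaled CPM, *pmaip1* in MC_WT (64.7 ± 18.9) was below *bcl2l10* (124 ± 28.5, SD, n = 3 each). MC_Het had *mcl1b* second (594 ± 92.0), without overlap with *pmaip1* (247 ± 105.9), and again *bcl2l10* (72.7 ± 23.6) and *bcl2l1* (31.5 ± 2.51) after them. In MA *bcl2l1* came next after *mcl1b* (57.0 ± 16.9 against 163 ± 76.3), but its range overlapped that of *pmaip1*, which in turn overlapped *bcl2l10*. *baxa* and *bida* lay in the middle of the order in all groups (5.95 to 14.1 rescaled RPKM on average), and *bbc3*, *bcl2l11* and *bcl2a* lay below them.

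The balance of the *mcl1* copies varied between samples of the same group. The ratio of *mcl1a* to *mcl1b* in rescaled CPM was 3.89, 3.31 and 3.33 in MC_WT1 to MC_WT3 and 2.67, 1.68 and 1.41 in MC_Het1 to MC_Het3. In MA1, MA2, MA3A, MA3B and MA3C it was 4.32, 2.92, 3.72, 1.99 and 3.46. The tumors lay across both melanocyte groups, while the MC_WT and MC_Het ratios did not overlap. The log2 ratio was 1.67 ± 0.43 (SD, n = 5) in MA and 1.35 ± 0.59 (SD, n = 6) in melanocytes, a difference of 0.32 (exact permutation test, 2-sided p = 0.333). For MC_Het minus MC_WT the difference was -0.92 (exact permutation test, 2-sided p = 0.1), and 0.1 is the smallest p that 3 against 3 samples allow.

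Among the tumors the members did not move as a block. MA3B had the highest value of 5 of the 11 rows and the lowest of *bbc3*, while MA3A had the lowest value of 6 rows. The spread was widest for *pmaip1* among the 10 genes, with a 5.22-fold range from MA2 to MA1, followed by *mcl1b* with a 3.10-fold range from MA3A to MA3B. *bcl2a* varied least, with a coefficient of variation of 8.93%. For *mcl1b*, *bcl2l1* and *bida* the highest and the lowest tumor, MA3B and MA3A, came from the same fish.

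**Figure D4:**
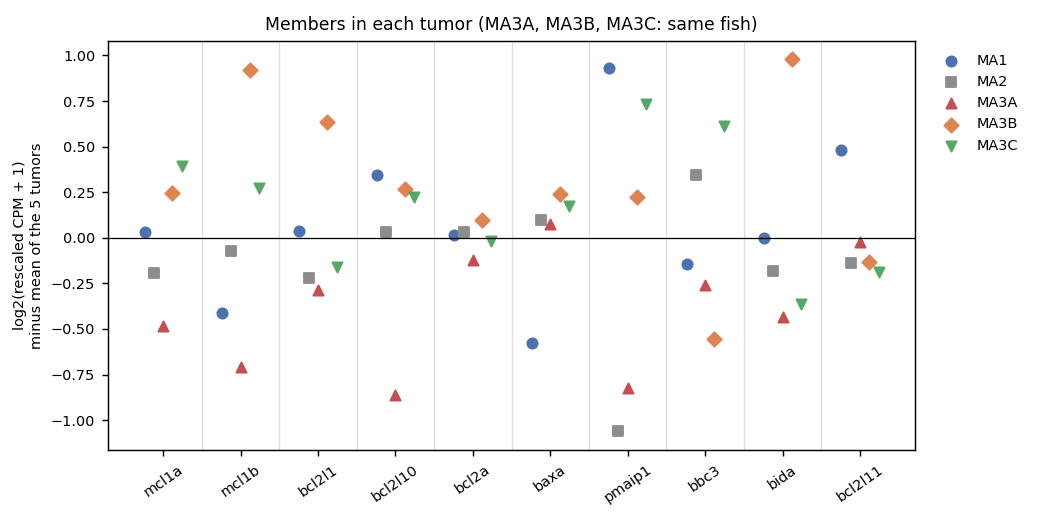
Level of each of the 10 Bcl2 family genes (x axis) in each tumor, as log2(rescaled CPM + 1) minus the mean of the 5 tumors (y axis). Each symbol is a tumor, and MA3A, MA3B and MA3C come from the same fish. MA3B is the highest for *mcl1b*, *bcl2l1* and *bida*, and *pmaip1* has the widest spread, 5.22-fold in rescaled CPM.

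Other genes of the apoptosis pathway were taken from a list of 46, of which 38 were found in the table and 35 tested. In MA against all melanocytes 3 were called higher and 15 lower by limma. The 15 include *casp3b*, which passed the filter only through melanocytes and is not read as a test. The median log2 fold change of the 35 was -0.54 beside 0.04 for all genes, of which 23.8% were called higher and 27.7% lower. On the deposited CPM the count was 7 higher and 10 lower, where 6203 of all 14706 genes were called higher and 3129 lower. None of the 35 was called between MC_Het and MC_WT by limma. The 12 other Bcl2 family genes tested gave 8 lower and 0 higher in MA. Among them was the BH3-only gene *bik*, at 62.1 to 115.9 rescaled CPM in melanocytes and 2.47 to 7.15 in MA (log2 fold change -4.17, SE 0.29, adjusted p = 1.21e-08, limma). The pore-forming relative *boka* (-3.74), *bcl2l13* (-3.05), the second Bcl2 copy *bcl2b* (-1.99), *bmf2* (-1.58), *bnip4* (-1.42), *baxb* (-1.16) and the BH3-only gene *bada* (-0.96) were also lower on the log2 scale. On the deposited CPM the calls of *baxb* (-0.53, adjusted p = 0.151) and *bada* (-0.32, adjusted p = 0.339) were lost, and that of *bada* also with fish as a random block (adjusted p = 0.0588, all limma).

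Downstream of mitochondria, 2 of 6 genes of the apoptosome and the caspases were lower in MA and none was higher. Of all genes, 27.7% were called lower and 23.8% higher. The 2 lower genes were the executioner caspase genes *casp3b* and *casp3a* (-1.79 on the log2 scale). *casp3b* was at 11.2 to 29.97 rescaled CPM in melanocytes and 0 to 0.52 in MA. It passed the filter only through melanocytes, and its fitted log2 fold change of -3.98 depends on the pseudocount and the unit, from -2.18 on RPKM to -6.69 by DESeq2, so it is given with no test. *apaf1*, the scaffold of the apoptosome, and the initiator gene *casp9* were not called (-0.60 and 0.54 on the log2 scale). Of 6 genes for proteins released from mitochondria or for channels of the outer membrane, the channel genes *vdac3* (1.31 on the log2 scale, SE 0.31, adjusted p = 0.0024, limma) and *vdac1* (0.81) were higher, and the call of *vdac1* was lost under 10 of 23 alternatives.

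Inhibitors of apoptosis, which block caspases or, for *birc5a* (Survivin), also serve cell division, gave 3 lower and 1 higher of 4 tested. Over all genes 27.7% were called lower and 23.8% higher. *xiap* (-2.22), *birc2* (-1.27) and *birc6* (-0.93) were lower on the log2 scale, and on the deposited CPM the calls of *birc2* (-0.60, adjusted p = 0.0536) and *birc6* (-0.29, adjusted p = 0.342, both limma) were lost. *birc5a* was at 1.73 to 3.87 rescaled CPM in melanocytes and 10.7 to 45.4 in MA (log2 fold change 3.10, SE 0.38, adjusted p = 6.1e-06, limma). The 7 proliferation markers, led by *pcna*, summed to 99.8 to 283 rescaled CPM in melanocytes and 445 to 954 in MA, and their part in the *birc5a* value was not tested. In the death receptor arm 2 of 7 genes were lower, near the 27.7% called lower over all genes. They were *tnfrsf1a* (-2.37 on the log2 scale, SE 0.23, adjusted p = 6.09e-07, limma) and *tnfrsf1b* (-1.28), both receptors for TNF. The call of *tnfrsf1b* was lost on the deposited CPM (-0.77, adjusted p = 0.0959, limma). *casp8*, which cuts Bid, had a log2 fold change of -0.02 (SE 0.23).

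**Figure D5:**
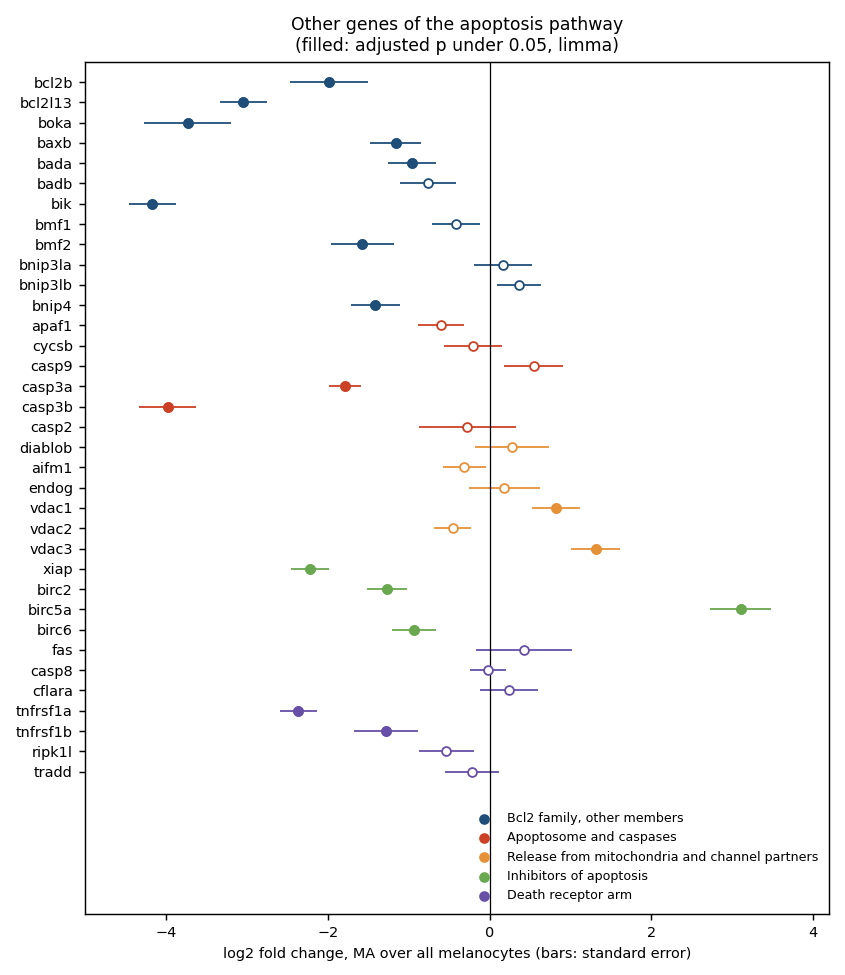
Log2 fold change of MA over all melanocytes (x axis) for the 35 other apoptosis genes tested (y axis), coloured by group. Bars are standard errors and filled points have an adjusted p under 0.05 by limma. The filled points are 15 below 0, led by *bik* and *casp3b*, and 3 above 0, *birc5a*, *vdac3* and *vdac1*. *casp3b* passed the filter only through melanocytes, so its filled point is not read as a test.

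The genes most like the leading members over the 11 samples were found among 8079 genes with a mean of at least 10 CPM, by the Euclidean distance between log2(rescaled CPM + 1) centred on the mean of each gene. For *mcl1a* they were *ccni* (0.82), si:dkey-253i9.4 (0.87) and AC024175.17 (0.90), where the median distance was 3.64. For *pmaip1* they were *clic2* (1.26), *pstpip2* (1.33) and *irak3* (1.37), where the median was 5.68. *ccni* was at 519 ± 61.2 rescaled CPM in melanocytes (SD, n = 6) and 252 ± 89.5 in MA (SD, n = 5), and *irak3* at 53.9 ± 19.9 and 9.62 ± 4.68.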

How the data were processed

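All 11 RNA-seq samples were used, and ATAC-seq data were not used here. Sorted-cell RNA was amplified as cDNA (SMARTer) and sequenced as single-end reads of 50 bp. STAR was used by the authors to align the reads to GRCz11. For each gene the authors deposited a CPM value and an RPKM value, the latter being the CPM over 1 length per gene. Their methods describe RSEM counts on RefSeq genes, but the table holds Ensembl identifiers and whole reads, so its counter is not known. Strand use in counting is not given in the sources used here.

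In each sample 100% of values under 50 reads were multiples of the value of 1 read (tolerance 0.01), from which reads and totals were recovered. Listed genes held 89.5 to 92.0% of the totals. Of 24874 rows, 236 identifiers were repeated and used once. In a table of current names, 10 of the 11 member rows were matched. Depth bounds counting error only, because amplified reads are not independent molecules.

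Rescaling used median-of-ratios factors over the 11 samples. A gene entered a fit if 3 or more of its samples reached 1 CPM. The test was limma 3.58.1 (trend, R 4.3.3) on log2(rescaled CPM + 1), 2-sided, adjusted by Benjamini-Hochberg. MA was set against all melanocytes (5 against 6) and, in a fit of 3 groups, against each genotype. MC_Het was set against MC_WT within melanocytes (3 against 3). The alternatives were DESeq2 1.42.0 and edgeR 4.0.16 (run on recovered reads), RPKM, deposited CPM, scaling to the 75th percentile, pseudocounts (0.1, 0.5), filters (none, or a mean of 5 CPM), MA3 tumors averaged, a random block for fish, the 3-group fit, a block for replicate number, and leaving out samples in turn. The fits were tested on simulated data. The rule for named genes took all members, the called gene with the largest change in MA against all melanocytes in each pathway group, the most abundant gene of each marker list, and the 3 nearest genes to the most abundant and to the most changed member. Other pathway genes were named after their values were seen. The members and lists were chosen with earlier results of these data known. Items withheld from the text are not reported here.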

Additional observations from a re-analysis of the deposited data

Results flagged for a closer look

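In 4 places a tumor stood apart from the other 4 tumors by Dixon's test at 95%, and 11 rows were looked at in MA. The nominal rate of about 1 in 20 groups holds for independent, normally distributed values, while MA3A, MA3B and MA3C share a fish. The share of all genes flagged was not computed, so whether 4 of 11 rows is unusual cannot be said. *bcl2l1* in MA3B was 203.8 rescaled CPM, against 107 to 134 in the others. *bida* in MA3B was 42.2 rescaled CPM, against 15.2 to 20.9. *baxa* in MA1 was 7.72 rescaled CPM, against 12.7 to 14.3. *bcl2l11* in MA1 was 3.82 rescaled CPM, against 2.04 to 2.39.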

How the results depend on the processing

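Of 852 values of members under alternatives, 778 kept their direction and side of the threshold, 34 lost a call, 20 gained one and 20 changed sign. These include *bcl2a* and the second *baxa* row, which passed the filter only through MA and only through melanocytes. Of the gained calls, *bcl2a* had 6 against MC_Het and 2 against all melanocytes, and the second *baxa* row had 6 against MC_WT. Calls of these 2 rows are not read as a result. Of 413 values of called pathway genes, 397 were kept, 16 lost the call and 0 changed sign. The 413 include *casp3b*, which passed the filter only through melanocytes and is not read as a test. The cause of the changes was not tested. Counts of members called higher in MA against all melanocytes were 3 on the deposited CPM and 2 on RPKM, beside 1. The added members were *bida* and *bcl2a* on the deposited CPM and *bcl2a* on RPKM. Of all 14706 genes, 6203 were called higher on the deposited CPM and 3468 on RPKM, beside 3503. Members called higher in MC_WT than in MA were 2 on the deposited CPM, beside 6. Of all 14706 genes, 2748 were called higher in MC_WT on the deposited CPM, beside 3688. Members called higher in MA than in MC_Het were 2 on the deposited CPM, with scaling by the 75th percentile, with a pseudocount of 0.5, without a filter, on RPKM and with DESeq2, and 0 with fish as a random block, beside 1. In the same order, the genes called higher were 5244, 3735, 3028, 2766, 2956, 3088 and 2498, beside 3011. They were out of 14706 genes, or 22387 without a filter. Where the count of members was 2, the added member was *bcl2a*. It passed the main filter only through MA, and these calls are not read as a result. With each sample left out, counts of members ranged from 0 to 1 higher in MA and 3 to 7 higher in MC_WT in the comparison with MC_WT, and from 0 to 1 higher in MA in that with MC_Het. The values 0 and 3 against MC_WT came without MC_WT1, where 2019 of 14561 genes were called higher in MA and 3038 lower. The value 7 came without MA3C, where 3528 of 14566 genes were called lower in MA. The row added there was the second *baxa* row, which passed the filter only through melanocytes and is not read as a test. The value 0 against MC_Het came without MC_Het1 or MC_Het3, where 2620 of 14447 and 2399 of 14490 genes were called higher. The difference of MA minus melanocytes in the log2 ratio of *mcl1a* to *mcl1b* stayed at 0.15 to 0.49 under all 14 alternatives.

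Signs changed only in values that were not called. *bcl2l11* against MC_WT was 0.48 on the deposited CPM, 0.079 with the 75th percentile, 0.039 with the tumors of fish MA3 averaged and 0.0040 with fish as a random block. On the deposited CPM *bcl2l10* against MC_Het was 0.017. With a sample left out, *bida* ranged from -0.11 to 0.24 against all melanocytes, from -0.22 to 0.15 against MC_WT and from -0.032 to 0.54 against MC_Het, and *bcl2l11* from -0.25 to 0.10 against MC_WT. For MC_Het over MC_WT the ranges were -0.049 to 0.22 for *bcl2l1*, -0.22 to 1.28 for the second *baxa* row, -0.29 to 0.53 for *bbc3*, -0.51 to 0.055 for *bida* and -1.12 to 0.021 for *baxa*.

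Replicate numbers of MC_WT and MC_Het did not pair the samples (correlations of -0.01, -0.12 and -0.07 between same-numbered samples). With the replicate block 0 members were called in either direction between MC_Het and MC_WT, and against MC_WT *bcl2l11* was 0.10 and *bida* -0.052. The block lost the calls of *baxa* (adjusted p = 0.0746) and *bcl2l10* (adjusted p = 0.0526, both limma) against MC_WT. Over all genes it called 3 higher and 5 lower in MC_Het, beside 46 and 21, while DESeq2 called 293 and 222, edgeR 26 and 15, and the fit without a filter 2 and 5. Depth limited *bcl2a*, *bcl2l11* and the second *baxa* row, with at most 117 reads in any sample.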
